A study of Mus musculus with 15 samples.

Results

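Arid1a, the gene that Cre was designed to inactivate in these mice, and Arid1b, its close paralogue, were followed through every table of open chromatin regions in pancreatic islets. Members were all listed peaks that the authors' annotation assigned to either gene symbol, after repeated rows had been dropped. They numbered 14 of 41774 peaks over 4 tables, 3 for Arid1a and 11 for Arid1b. These reduce to 4 places in the genome: 1 for Arid1a, seen in 3 tables, and 3 for Arid1b.

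The assay was ATAC-seq, where a transposase cuts accessible DNA and tags it for sequencing, applied to islets of male mice aged 3 months. The KO-labelled mice were Arid1aFl/Fl; MIP-rtTA; TRE-Cre, and the controls were Arid1aFl/Fl; MIP-rtTA, so floxed Arid1a alleles and the doxycycline-dependent activator under the mouse insulin promoter were common to all animals, and Cre alone set the genotypes apart. All received doxycycline at 1 g/L for 2 weeks, and islets were taken 6 days after partial pancreatectomy (PPx), performed 1 week after withdrawal, or without it. The groups held 4 KO-labelled mice after PPx, 3 KO-labelled mice before PPx, 4 control mice after PPx and 4 control mice before PPx, 1 library each. Since the insulin promoter restricts Cre to beta cells, the other cells of a KO-labelled islet keep the floxed alleles, and an islet library mixes both. A change in the share of cells with an open site and a change in how open it is per cell cannot be told apart in such libraries.

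ARID1A and ARID1B are alternative subunits of the BAF form of the SWI/SNF complex, which uses ATP to slide or evict nucleosomes. A given complex carries 1 or the other, and both bind DNA through an ARID domain. When ARID1A is lost from a cell, ARID1B-containing complexes are the remaining BAF complexes, which is why the paralogue is of interest beside the deleted gene.

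The tables hold group means only, as log2 normalised reads per peak of 601 bp, so depth and values per library are unknown. The spread between mice enters only through the authors' p-value and FDR. These also depend on the size of the effect, the number of mice and a test that is not stated. The 15 libraries shared a flow cell per the labels' protocols, which give no other batch. A standard error is given below as implied by the size of a fold and its deposited p-value, and is not a direct measure of variation between mice. Peaks with a deposited FDR up to 0.05 count as called, gained where the fold is above 0 and lost where it is below 0. Of 10 beta cell markers 4 to 6 had a listed peak per table, Ins2, Pdx1, Neurod1 and Slc2a2 had none in any table, and of 6 acinar markers 0 were listed. The summed level of the beta cell marker peaks was 72.2 normalised reads in KO-labelled and 73.0 in control islets before PPx, over 4 peaks. In the table of genotype after PPx it was 228 in KO-labelled and 138 in control islets, over 12 peaks, so the sums of the 2 tables are not comparable. The median log2 fold of those 12 was 0.61, equal to the median of all peaks there. Before PPx the alpha cell marker peaks summed to 22.4 in KO-labelled and 30.0 in control islets, over 2 peaks. The 1 delta cell peak, of Sst, had 33.6 and 20.8 in that order. By genotype after PPx Sst had a log2 fold of 1.12 and was called, beside 9.98% of all peaks. Some ductal, endothelial, fibroblast and leukocyte markers also had listed peaks there. The part of these marker levels in the results below was not tested.

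None of the 4 places was a promoter. RefSeq (GRCm38.p6, the assembly of mm10) gives Arid1a 2 start sites and Arid1b 1, and no listed peak of any gene overlapped the 300 bases around these starts in any of the 4 tables. The Arid1b gene span begins further upstream, at 4994297, so the 300 bases around its RefSeq start lie inside the gene. The listed peak nearest to that start was 86.8 kb away in each table, so none lay at the upstream end either. Over all RefSeq promoters 24.1% overlapped a listed peak in at least 1 table, and of 24 SWI/SNF genes with a promoter sequence 11 did. The 3 sequences are shown because gene starts are the usual place to look for accessibility and these gave no peak. That of Arid1b is a stretch inside the gene span and may not be its promoter. They are followed by that of Actl6a, a SWI/SNF subunit gene whose promoter was listed in all 4 tables. Capitals mark GGGCGG or its reverse complement CCGCCC, the GC box bound by Sp1-type factors.
Arid1a, outer start, chr4:133756720-133757019, minus strand: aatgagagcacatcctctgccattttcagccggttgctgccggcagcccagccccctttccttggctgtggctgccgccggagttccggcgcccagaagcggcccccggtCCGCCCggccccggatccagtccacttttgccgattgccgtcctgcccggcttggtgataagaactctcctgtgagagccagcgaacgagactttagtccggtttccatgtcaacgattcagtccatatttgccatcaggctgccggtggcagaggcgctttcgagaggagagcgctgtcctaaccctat
Arid1a, inner start, chr4:133753936-133754235, minus strand: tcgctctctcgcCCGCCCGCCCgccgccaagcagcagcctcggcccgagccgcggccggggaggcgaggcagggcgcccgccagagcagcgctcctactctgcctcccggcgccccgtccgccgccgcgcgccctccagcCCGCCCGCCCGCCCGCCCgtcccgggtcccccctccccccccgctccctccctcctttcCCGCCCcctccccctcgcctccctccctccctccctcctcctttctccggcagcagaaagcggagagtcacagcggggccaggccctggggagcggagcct
Arid1b start, chr17:4994824-4995123, plus strand: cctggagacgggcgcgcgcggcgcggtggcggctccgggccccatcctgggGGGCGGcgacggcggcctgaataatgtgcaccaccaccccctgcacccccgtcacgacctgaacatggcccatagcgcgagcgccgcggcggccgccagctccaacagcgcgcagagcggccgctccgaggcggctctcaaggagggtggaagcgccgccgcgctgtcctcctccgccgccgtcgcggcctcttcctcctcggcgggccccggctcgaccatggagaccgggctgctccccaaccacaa
Actl6a start, chr3:32708296-32708595, plus strand: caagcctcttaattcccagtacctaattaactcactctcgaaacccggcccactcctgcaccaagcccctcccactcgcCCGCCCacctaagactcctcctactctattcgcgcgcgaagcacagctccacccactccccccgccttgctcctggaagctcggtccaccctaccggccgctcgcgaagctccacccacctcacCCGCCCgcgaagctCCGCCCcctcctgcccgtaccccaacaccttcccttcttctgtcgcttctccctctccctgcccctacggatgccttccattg

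The sequences at the starts that gave no peak were not poor in CpG, that of Arid1b being a stretch inside the gene span. The outer Arid1a start held 22 CG dinucleotides, the inner one 36 and the Arid1b start 42, against 21 at Actl6a, a median of 23 over promoters that overlapped a listed peak and 5 over those that did not. The GC box occurred, on either strand and counting overlapping matches, 1 and 7 times at the outer and inner Arid1a starts, 1 time at Arid1b and 3 times at Actl6a, and 35.7% of all RefSeq promoters hold at least 1. Of promoters with 22 or more CG dinucleotides 57.0% overlapped a listed peak, so a CpG-rich start without a peak was common in these tables. For Arid1b the counts do not describe the upstream end of the gene span. The sequence of the Arid1a exon peak itself is not used here.

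The Arid1a peak lies within the gene, in exon 9 of 20 of the authors' annotated transcript ENSMUST00000105897 (ENSMUSG00000007880). Its coordinates in mm10 were chromosome 4, 133692981 to 133693581, in the authors' deposited tables of genotype before PPx and of PPx in KO-labelled islets, and 1 base lower in the table of genotype after PPx. Its centre is 63.5 kb downstream of the outer Arid1a start and 60.7 kb downstream of the inner one. The 3 Arid1b places lie on chromosome 17 (ENSMUSG00000069729). A distal intergenic peak stood 86.8 kb upstream of the Arid1b start, at 4908019 to 4908619 in the authors' deposited table of genotype before PPx. An intron 4 peak, of 18 introns, stood 194.9 kb downstream, at 5189704 to 5190304 in that table. An intron 8 peak stood 300.7 kb downstream, at 5295431 to 5296031 in the authors' deposited table of genotype after PPx. Peak borders of the same place differed between tables by up to 99 bases, so counts at 1 place come from slightly different windows.

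In the comparison of genotypes before PPx, which asks what Cre induction did to islet chromatin at rest, exon 9 of Arid1a had 44.9 normalised reads in KO-labelled islets against 2.31 in control islets, as group means of the authors' deposited table. The peak was called in 3 of 3 KO-labelled and 0 of 4 control libraries, a pattern (no control call, 3 KO-labelled calls) held by 0.767% of the listed peaks. Nearly all of its signal was thus in the mice with Cre. Its log2 fold was 4.28, with an implied SE of 0.83 and an FDR of 0.00187 by the authors' deposited table, and the next largest of the table was 2.35. The level of the peak in KO-labelled islets was higher than 92.4% of listed peaks, whereas its level in controls was among the lowest 2.26%. Over the comparison 0.0128% of 7826 peaks were called, so that the Arid1a peak was the single call.

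After PPx the same place had 16.4 normalised reads in KO-labelled islets and 1.32 in control islets, as group means of the authors' deposited table. Calls numbered 3 of 4 KO-labelled and 0 of 4 control libraries, and 7.94% of the listed peaks had 3 or 4 KO-labelled calls and no control call. The authors' deposited table gave a log2 fold of 3.64, with an implied SE of 0.69 and an FDR of 0.00201, the highest of 13111 peaks, ahead of 2.68 for the next. Over this comparison 9.98% of peaks were called, 9.89% as gained and 0.0839% as lost, and the median log2 fold was 0.61, and the Arid1a fold exceeded that median by 3.03. Its level in KO-labelled islets was here in the middle of the table, and in controls among the lowest 1.45%.

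The call pattern alone did not set the peak apart. As each table holds peaks called in at least 2 of its libraries, the peak entered both genotype tables through KO-labelled libraries alone. Its folds and ranks there depend on that selection. Before PPx, 59 other peaks were called in 0 control and 3 KO-labelled libraries, with a median log2 fold of 0.59 and a highest of 1.77. After PPx there were 818 such peaks, with a median of 0.84 and a highest of 2.58. The Arid1a folds of 4.28 and 3.64 lay above all of them. Exon peaks of other genes had log2 folds between -2.05 and 1.77 before PPx (97 peaks, median -0.11) and between -1.16 and 1.71 after PPx (203 peaks, median 0.39).

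**Figure D1:**
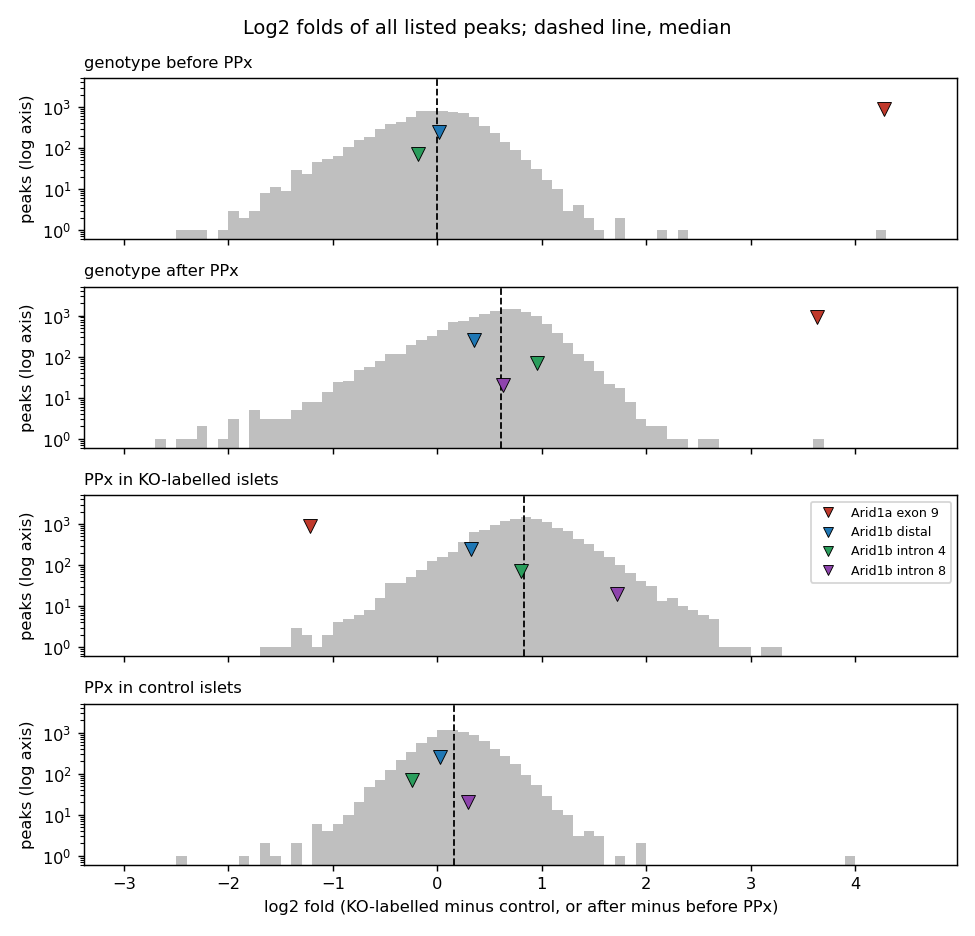
Histograms of the log2 folds of all listed peaks in the 4 comparisons (log count axis), with triangles at the folds of the Arid1a and Arid1b peaks (their height has no meaning) and a dashed line at the median. The Arid1a peak stands at 4.28 and 3.64, beyond all other peaks of both genotype comparisons, and at -1.22 for PPx in KO-labelled islets, while the Arid1b peaks lie within the range of the other peaks, intron 8 for PPx in KO-labelled islets at 1.72 in the upper tail.

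The labels do not say which exon is floxed, and ATAC reads report accessible DNA rather than transcript or protein. The peak therefore differs between the group means of the genotypes, with calls in KO-labelled libraries alone (3 of 3 before and 3 of 4 after PPx), and does not measure loss of Arid1a. The genotype groups are accordingly called KO-labelled and control by their titles.

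Few peaks were listed near the exon 9 peak, and their call counts say little about the segment. Within 500 kb of it 3 other peaks were listed before PPx and 5 after PPx, of which 0 were called at either time, beside 0.0128% of all peaks before PPx and 9.98% after PPx. Before PPx the Arid1a peak was the single call of the table, so no neighbour could be called. After PPx 0 of 5 does not set the segment apart from the share of all peaks. The nearest, the promoter of Nudc, which encodes a dynein-associated protein of nuclear distribution, lay 147 kb away and had log2 folds of -0.19 (implied SE 0.51) before PPx and 0.14 (implied SE 0.46) after PPx in the authors' deposited tables. On the other side the nearest listed peak after PPx was a distal peak of Rps6ka1, a ribosomal S6 kinase gene, at 218 kb with a log2 fold of 0.06 (implied SE 0.53) in the authors' deposited table. Before PPx that place was taken by the Cep85 promoter, 494 kb away, with -0.28 (implied SE 0.57) in the authors' deposited table. The extremes within the window were Wdtc1 at -0.77 before PPx and Cep85 at 0.86 after PPx. Median log2 folds of the neighbours were -0.28 before PPx (table median 0.00) and 0.14 after PPx (table median 0.61).

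**Figure D2:**
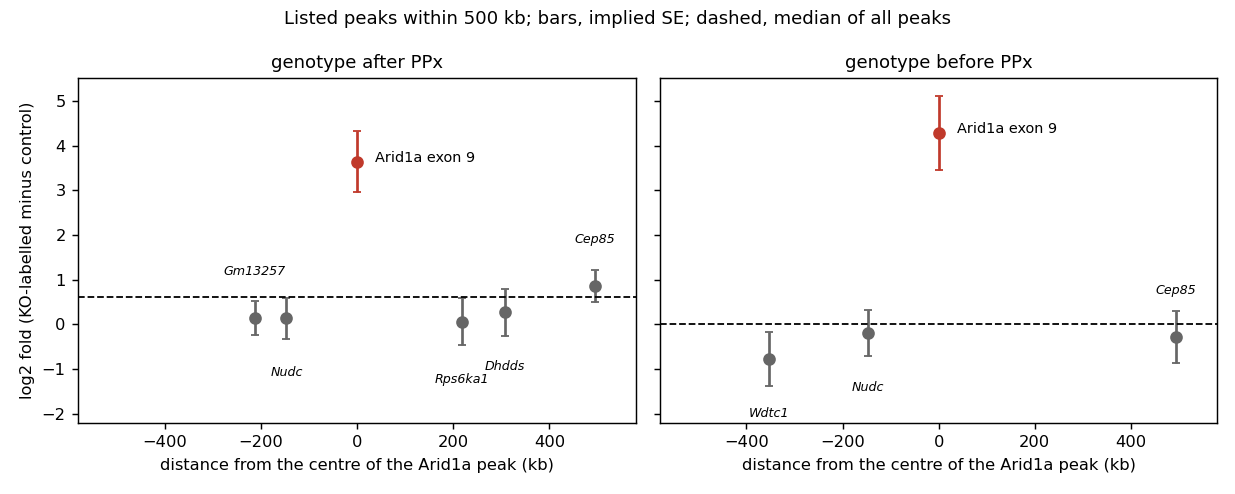
Log2 folds (KO-labelled minus control, with bars for the implied SE) of the Arid1a peak and of all listed peaks within 500 kb, by distance in kb, after PPx on the left and before PPx on the right; the dashed line is the median of all peaks. The Arid1a peak stands at 3.64 and 4.28, and the neighbours lie between 0.06 and 0.86 after PPx and between -0.77 and -0.19 before PPx.

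Within KO-labelled islets the exon 9 peak was lower after PPx, against the direction of nearly all other peaks. It had 16.4 normalised reads after and 38.3 before PPx by the authors' deposited table, and was called in 3 of 4 libraries after and 3 of 3 before PPx. The authors' deposited table gave a log2 fold of -1.22, with an implied SE of 0.47 and an FDR of 0.0584, which missed the threshold. In this comparison 7.45% of 12767 peaks were called, all of them gained, and the median log2 fold was 0.83. Only 359 peaks had a fold below 0, and 3 of these had an unadjusted p under 0.05 by the authors' test, beside 39.4% of all peaks. The Arid1a peak had the smallest of the 3, 0.00918 in the authors' deposited table. It ranked 7th from the bottom of the table by fold. Measured against the median its fold was -2.05, which also did not pass after Benjamini-Hochberg adjustment over all listed peaks.

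The table of PPx in control islets lists no Arid1a peak. Each table holds peaks called in at least 2 of its libraries, and the exon 9 place was called in 0 of 8 control libraries. Levels of controls are nevertheless contained in the 2 genotype tables. For the same group in 2 tables, levels of peaks overlapping by 90% or more differed by a nearly constant amount: the median was -0.23 for KO-labelled islets before PPx (quartiles -0.23 and -0.22, 5961 peaks), -0.18 for controls before PPx (quartiles -0.19 and -0.17, 5767 peaks), 0.00 for KO-labelled islets after PPx (11132 peaks) and 0.05 for controls after PPx (quartiles 0.04 and 0.06, 6285 peaks). With the table of genotype after PPx as zero, the table of genotype before PPx stood 0.23 higher by both routes, and the table of PPx in controls 0.05 higher. Taking off these offsets put all 4 groups on 1 log2 scale. No test is given for values set across tables.

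On that scale the Arid1a exon 9 level was 4.04 in KO-labelled islets after PPx, 5.26 in KO-labelled islets before PPx, 0.40 in controls after PPx and 0.98 in controls before PPx. It was lower after PPx by 1.22 under the KO label and by 0.58 in controls, where the levels amount to 1.32 normalised reads after and 1.97 before PPx. The KO-labelled groups were far above both control groups. The difference between the genotype effects after and before PPx was -0.64 (SE 1.08, 95% interval -2.75 to 1.47), which includes 0. Over 7504 matched peaks the median difference was 0.64, and 2 passed after adjustment, neither of them a member. The interval is a normal approximation from the implied errors, as no values per library were at hand.

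**Figure D3:**
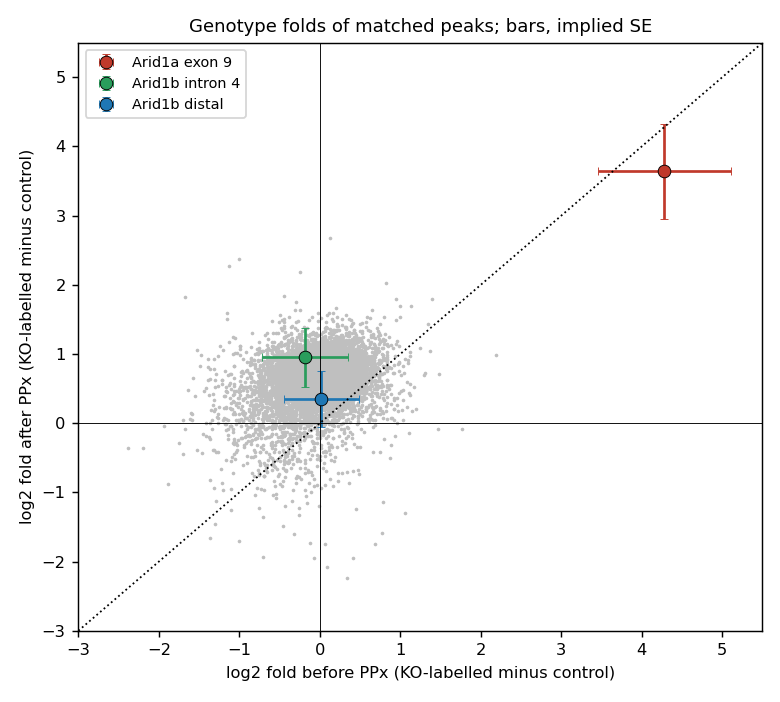
Log2 folds of KO-labelled over control islets for 7504 peaks matched between tables, before PPx on the x axis and after PPx on the y axis, with bars for the implied SE and a dotted line of equality. The Arid1a peak stands apart at 4.28 and 3.64, while the Arid1b intron 4 and distal peaks lie in the cloud, above the line like most peaks.

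Arid1b showed no call by genotype. In the comparison before PPx its intron 4 peak had 11.0 normalised reads in KO-labelled islets and 12.5 in controls, and its distal peak 13.9 in KO-labelled islets and 13.7 in controls, as group means of the authors' deposited table. Calls were made in 1 of 3 KO-labelled and 3 of 4 control libraries at intron 4, and in 2 of 3 KO-labelled and 1 of 4 control libraries at the distal peak. The log2 folds in the authors' deposited table were -0.18 (95% interval -1.23 to 0.87) at intron 4 and 0.02 (-0.89 to 0.93) at the distal peak, both at an FDR of 1. The intervals leave room for differences in either direction. The intron 8 peak is not among the listed peaks of that comparison, and in the tables that hold those groups it was called in 0 of 3 KO-labelled and 1 of 4 control libraries before PPx.

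After PPx all 3 Arid1b places had higher means under the KO label, by amounts around the shift of the whole table. Intron 4 had 17.6 normalised reads in KO-labelled and 9.13 in control islets, and was called in 2 of 4 KO-labelled and 0 of 4 control libraries. The authors' deposited table put its log2 fold at 0.95, with an implied SE of 0.43 and an FDR of 0.0801, and 0.34 over the median. With no control call, intron 4 was listed there through KO-labelled libraries alone. Its fold and FDR depend on that selection. Intron 8 had 18.1 and 11.7 normalised reads in KO-labelled and control islets, called in 3 of 4 and 2 of 4 libraries, and the authors' deposited table put its log2 fold at 0.63, with an implied SE of 0.39 and an FDR of 0.185. The distal peak had 14.6 and 11.5 normalised reads in KO-labelled and control islets, called in 2 of 4 and 1 of 4 libraries, and the authors' deposited table put its log2 fold at 0.35, with an implied SE of 0.40 and an FDR of 0.460. Thus 0 of 3 Arid1b peaks were called, beside 9.98% of all peaks.

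The 1 Arid1b call concerned PPx in KO-labelled islets. Intron 8 had 17.1 normalised reads after PPx against 5.21 before PPx, and was called in 3 of 4 libraries after and 0 of 3 before PPx, a pattern of 3 or more calls against none that 8.87% of listed peaks had. The authors' deposited table put its log2 fold at 1.72, with an implied SE of 0.52 and an FDR of 0.0353, the 275th highest fold. With no call before PPx, the peak was listed there through libraries after PPx alone. Its fold, FDR and rank depend on that selection. Centred on the table median the fold was 0.89, which was not called. Intron 4 had 17.6 normalised reads after and 10.1 before PPx, and the authors' deposited table put its log2 fold at 0.80, with an implied SE of 0.52 and an FDR of 0.192, just under the median of 0.83. The distal peak had 14.6 and 11.7 normalised reads after and before PPx, and the authors' deposited table put its log2 fold at 0.32, with an implied SE of 0.47 and an FDR of 0.539, at percentile 9.53 of the folds. So 1 of 3 Arid1b peaks was called beside 7.45% of all peaks, and the 3 places of the gene covered a wide part of the table's range.

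In control islets 0 of 3 Arid1b peaks were called for PPx, in a table where 0.0% of 8070 peaks were called. The authors' deposited table gave log2 folds of 0.29 (implied SE 0.41) at intron 8, -0.24 (implied SE 0.40) at intron 4 and 0.03 (implied SE 0.42) at the distal peak, each at an FDR of 0.999. The 95% intervals, -0.51 to 1.09, -1.03 to 0.55 and -0.79 to 0.85 in that order, leave room for differences in either direction. Intron 4 was called in 0 of 4 control libraries after PPx and in 3 of 4 before PPx, on means of 9.45 and 11.2 normalised reads in the authors' deposited table. It was thus listed there through libraries before PPx alone, and its fold depends on that selection. The effect of PPx at intron 8 was larger under the KO label by 1.43 (SE 0.66, 95% interval 0.13 to 2.73). In the KO-labelled comparison intron 8 was listed through libraries after PPx alone, so this difference and its interval depend on that selection. Adjusted over 7536 matched peaks the difference did not pass, and 0 of those peaks did, while the median difference over them was 0.65. At intron 4 and the distal peak the differences were 1.04 (SE 0.66) and 0.29 (SE 0.63).

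On the single scale the Arid1b levels varied less between groups at the distal peak than at the introns. The distal peak was at 3.87 in KO-labelled islets after PPx, 3.56 in KO-labelled islets before PPx, 3.54 in controls after PPx and 3.54 in controls before PPx. Intron 4 was at 4.14 in KO-labelled islets after PPx, 3.285 in KO-labelled islets before PPx, 3.19 in controls after PPx and 3.425 in controls before PPx. Intron 8 was at 4.14 in KO-labelled islets after PPx, 2.38 in KO-labelled islets before PPx, 3.57 in controls after PPx and 3.30 in controls before PPx. KO-labelled islets thus held both its highest level, after PPx, and its lowest, before PPx. Repeated estimates of 1 group from 2 tables differed by at most 0.11 at the Arid1b places.

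**Figure D4:**
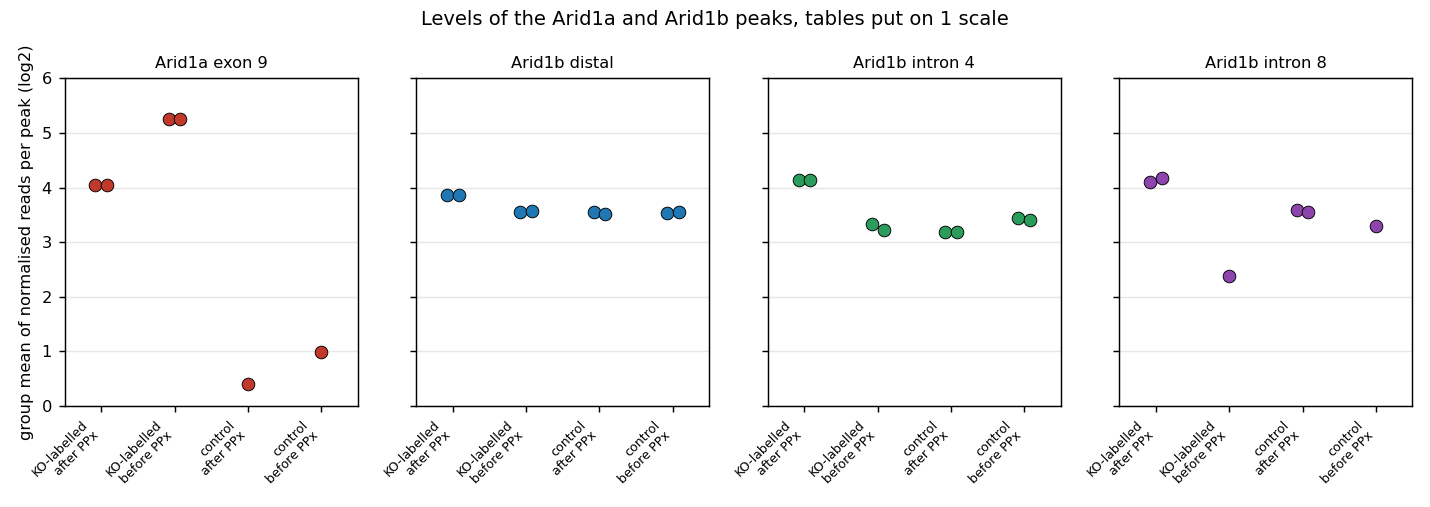
Group mean levels (log2 normalised reads per peak, tables put on 1 scale) of the 4 places, for KO-labelled islets after and before PPx and control islets after and before PPx; each point is the value from 1 table. Arid1a exon 9 lies at 4.04 and 5.26 under the KO label against 0.40 and 0.98 in controls, and the Arid1b points lie between 3.19 and 4.18 except intron 8 of KO-labelled islets before PPx at 2.38.

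The closest listed gene to the Arid1b introns was Zdhhc14, which encodes a palmitoyltransferase, with a promoter peak 196 kb beyond intron 8. In KO-labelled islets its promoter had 21.3 normalised reads after PPx, against 6.11 before PPx, and the authors' deposited table put its log2 fold at 1.80, with an implied SE of 0.51 and an FDR of 0.0282, so it was gained too, beside 7.45% of all peaks. Centred on the table median its fold was 0.97, which was not called. By genotype its log2 folds were -0.98 (implied SE 0.50, FDR 1) before PPx and 0.55 (implied SE 0.37, FDR 0.210) after PPx in the authors' deposited tables, and by PPx in controls 0.11 (implied SE 0.41, FDR 0.999). It was the single neighbour of Arid1b within 500 kb in each table.

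No other peak had a set of folds near that of Arid1a. Likeness was taken as the Euclidean distance over the log2 folds of the 3 tables that list the peak, among 6062 matched peaks of named genes. The nearest was the promoter of Mospd1, at a distance of 4.16 log2 units, with folds of 1.00 and 1.54 by genotype before and after PPx and 0.24 by PPx in KO-labelled islets. The Rab9, G6pdx and Ppm1l promoters were also among the 5 nearest, at distances of 4.22, 4.23 and 4.28, against a median distance of 5.59. The Arid1b places had near twins: the nearest lay at 0.0640 for intron 8 (Poc1b intron 2, over 3 tables), 0.0557 for intron 4 (a distal peak of Cct8l1, over 4 tables) and 0.0480 for the distal peak (the Ticrr promoter, over 4 tables). Next for intron 8 came Hunk, Lmnb2, Srp14 and Zcchc2, for intron 4 Ttc27, Ankrd37, Exo1 and Nol4, and for the distal peak Bsdc1, Sema3d, Cd36 and Nav3, at distances of up to 0.114. These distances rest on comparisons that share libraries and describe the tables only.

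Among the other subunit genes of SWI/SNF no peak assigned to their symbols was called in any of the 4 comparisons. The Pbrm1 promoter overlapped a listed peak by genotype after PPx and by PPx in KO-labelled islets. That peak is not assigned to the Pbrm1 symbol and is not counted here. Of 33 symbols searched, which include older symbols of Bicra and Bicral, 17 had a listed peak in at least 1 table. By genotype before PPx the list had 10 peaks, of which 1 was gained (Arid1a), 0 were lost and 9 did not pass, with a median log2 fold of -0.08 against 0.00 for the table. After PPx 1 of 18 was gained (Arid1a), 0 were lost and 17 did not pass, with a median of 0.695 against 0.61. For PPx in KO-labelled islets 1 of 20 was gained (Arid1b intron 8), 0 were lost and 19 did not pass, with a median of 0.68 against 0.83. For PPx in controls 0 of 10 passed, with a median of 0.09 against 0.16. The shares called over all peaks were 0.0128%, 9.98%, 7.45% and 0.0% in that order.

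By role, 0 peaks of the ATPase module were called, and its median log2 folds were 0.05 by genotype before PPx (3 peaks, table median 0.00), 0.57 by genotype after PPx (5 peaks, 0.61), 0.74 by PPx in KO-labelled islets (5 peaks, 0.83) and 0.15 by PPx in controls (3 peaks, 0.16). Over all peaks 0.0128%, 9.98%, 7.45% and 0.0% were called in that order, so 0 calls among so few peaks do not set the module apart. Smarca4, which encodes the ATPase BRG1, had promoter log2 folds of 0.42 by genotype before PPx, 0.57 by genotype after PPx and 0.50 by PPx in controls in the authors' deposited tables, the last with an implied SE of 0.45. Smarca2, which encodes the alternative ATPase BRM, had -0.30 and 0.69 by genotype before and after PPx and -0.15 by PPx in controls in the authors' deposited tables. Bcl7b, an accessory subunit gene, had 0.28 by genotype after PPx and 1.07 by PPx in KO-labelled islets, both at an FDR of 1 in the authors' deposited tables. Its unadjusted p-values by the authors' test were 0.533 and 0.0579 in that order. In both comparisons Bcl7b was listed through KO-labelled libraries after PPx alone (3 calls against 0), and its folds depend on that selection. Of 7 core scaffold genes 3 were listed by genotype after PPx and 0 were called, beside 9.98% of all peaks. In that comparison 90.3% of all peaks had a fold above 0. In the authors' deposited table Smarcc1, which encodes BAF155, stood at 1.03 (implied SE 0.47, FDR 1) and Smarcd2, which encodes BAF60B, at 1.01 (implied SE 0.41, FDR 0.0624), which is 0.42 and 0.40 above the table median. The unadjusted p-values of Smarcc1 and Smarcd2 there were 0.027 and 0.0145 by the authors' test. They were called in 2 and 4 KO-labelled libraries and in 0 control libraries, so both were listed through KO-labelled libraries alone. Their folds and p-values depend on that selection. Smarcd2 also had 1.32 by PPx in KO-labelled islets (FDR 0.0677), where Smarcb1, the core subunit gene SNF5, had -0.01 (FDR 1), in the authors' deposited table. There Smarcd2 was listed through libraries after PPx alone (4 calls against 0), so this fold depends on selection too.

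Further subunit genes had folds that varied with the comparison. Ss18, counted here under BAF though not particular to it, had promoter log2 folds of 0.18 and 0.71 by genotype before and after PPx, 0.74 by PPx in KO-labelled islets and 0.28 by PPx in controls, in the authors' deposited tables. A second Ss18 promoter peak had 0.29 by genotype after PPx and 0.50 by PPx in KO-labelled islets there. Phf10, a PBAF subunit gene, had -0.23 and 0.88 by genotype before and after PPx, 0.52 by PPx in KO-labelled islets and -0.59 (implied SE 0.74) by PPx in controls in the authors' deposited tables. Brd9, the bromodomain subunit gene of ncBAF, had -0.31 and 0.62 by genotype before and after PPx, 1.01 by PPx in KO-labelled islets (FDR 0.0811) and -0.03 by PPx in controls in the authors' deposited tables. Bcl11a, a zinc finger factor associated with BAF, had an intron 2 peak at -0.27 and -0.26 by genotype before and after PPx and at 0.24 by PPx in KO-labelled islets in the authors' deposited tables. None of these passed the FDR.

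Other genes with an ARID domain included the few further calls. Of 13 symbols 8 were listed. By genotype before PPx 0 of 6 peaks were called (median log2 fold -0.19 against 0.00), with the Arid4b promoter highest at 0.28 and Arid5b intron 4 and the Kdm5a promoter lowest at -0.98 and -0.96 in the authors' deposited table. After PPx 2 of 12 were gained, 0 lost and 10 did not pass (median 0.785 against 0.61), beside 9.89% of all peaks gained. Both gains were at Arid4b, which encodes a subunit of the Sin3 histone deacetylase complex: its promoter and its intron 3 each stood at 0.95, with FDRs of 0.0378 and 0.0396, by the authors' deposited table. Adjusted over all listed peaks, 0 of the 12 passed. Arid5b intron 8 and the Kdm5c promoter were higher still, at 1.13 (FDR 1) and 1.12 (FDR 0.0520), and did not pass in the authors' deposited table. Their unadjusted p-values by the authors' test were 0.0256 and 0.00891. They were called in 2 and 3 KO-labelled libraries and in 0 control libraries, so both were listed through KO-labelled libraries alone. Their folds and p-values depend on that selection. Jarid2, a partner of Polycomb complex PRC2, went the other way in intron 4, where the authors' deposited table has -0.68 at an FDR of 0.0859. Centred on the table median this was -1.29, which passed after adjustment over all listed peaks.

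For PPx in KO-labelled islets 2 of 12 ARID peaks were gained, 0 lost and 10 did not pass (median log2 fold 1.11 against 0.83), beside 7.45% of all peaks gained. Centred on the table median, 0 of the 12 passed. The 2 gained were Arid4b intron 3, at 1.26 (FDR 0.0386), and the promoter of Kdm5c, an X-linked histone H3K4 demethylase gene, at 1.67 (FDR 0.0410), by the authors' deposited table. Arid5b intron 8 had the highest fold, 2.09, at an FDR of 1, and Jarid2 intron 4 the lowest, -0.11, in the authors' deposited table. The Arid5b fold had an unadjusted p of 0.00251 by the authors' test, beside 0.00198 for the called Kdm5c promoter. After Benjamini-Hochberg adjustment over all listed peaks the Arid5b value was 0.0509. This Arid5b peak was called in 2 libraries after and 0 before PPx, so it was listed through libraries after PPx alone. Its fold and p-value depend on that selection. For PPx in controls 0 of 7 passed (median 0.22 against 0.16), between the Jarid2 promoter at -0.60 and the Kdm5b promoter at 0.47 in the authors' deposited table.

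**Figure D5:**
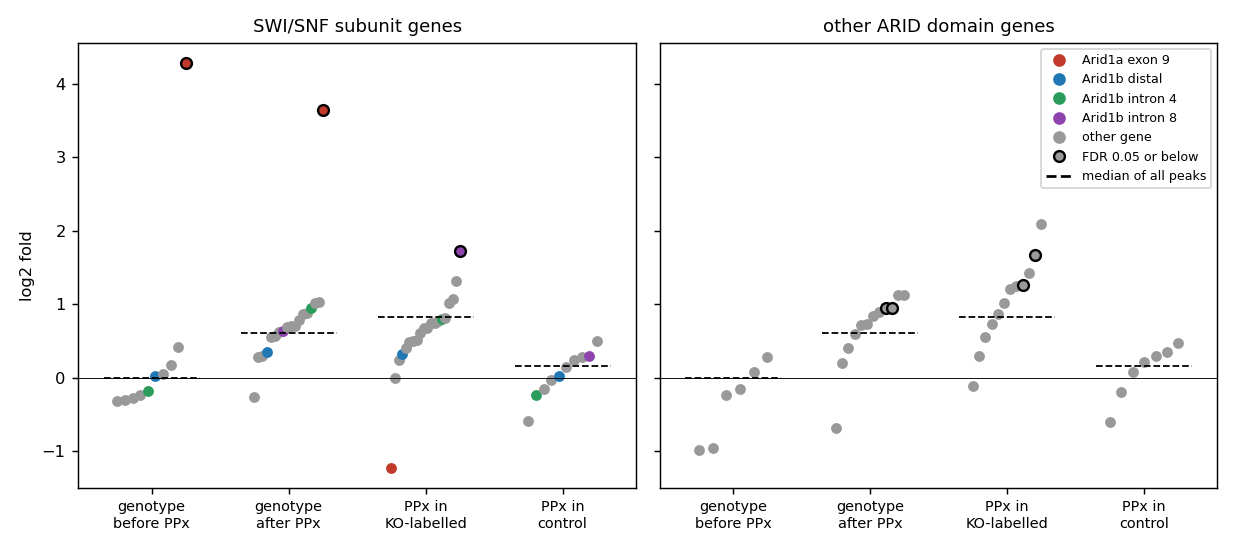
Log2 folds of all listed peaks of SWI/SNF subunit genes (left) and of other ARID domain genes (right) in the 4 comparisons, ordered by fold within each, with black rims at an FDR of 0.05 or below and a dashed line at the median of all peaks. Arid1a exon 9 is far from the other SWI/SNF peaks in 3 comparisons, and Arid1b intron 8 is the 1 rimmed SWI/SNF peak for PPx in KO-labelled islets.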

How the data were processed

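ATAC-seq libraries were made from 40000 islet cells per mouse and read as 75 bp single ends, per the labels' protocols. The submitters' processing notes name cutadapt, BWA, MACS, DiffBind and ChIPseeker and the mm10 build, without versions, with roles not given in the sources used here. The 4 tables of peaks were deposited by the authors with group concentrations in log2, a log2 fold, a p-value and an FDR, and the number of libraries with a call. Their scaling, test and FDR adjustment are likewise not stated. Some rows hold an FDR at its upper limit beside an unadjusted p under 0.05, so that FDR is not read as absence of a difference. The deposited log2 concentrations are logs of arithmetic means: they reproduce within 0.01 from the group values weighted by libraries. Repeated rows (12403 over the tables) were dropped. Deposited folds run the other way and were turned, so that a positive value means higher in KO-labelled islets or after PPx.

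The implied SE is the size of the fold over the two-sided normal quantile of p, or, for folds under 0.1 or p from 0.95, the median of 1 of 40 concentration bins. Intervals are 95% normal intervals. Differences between effects were tested by z tests, a normal approximation from these implied errors, over peaks matched by at least 1 bp and adjusted by Benjamini-Hochberg, a procedure tested on simulated data. Computation used Python 3.11.15, pandas 2.3.3 and scipy 1.17.1. Members and gene lists were chosen with earlier results of these data known. Named beside the members were, of each list, called peaks and the 3 highest and 3 lowest folds per comparison, of the neighbours called, nearest and extreme peaks, and the 5 most alike peaks, of which 1 is not reported here.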

Additional observations from a re-analysis of the deposited data

How the results depend on the processing

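The Arid1a calls by genotype held in every alternative tried: an FDR of 0.01, adjustment over all listed peaks, repeated rows kept, and centring on the table median (log2 fold 3.03 after PPx). Its fold for PPx in KO-labelled islets stayed below 0 and uncalled in each. The Arid1b intron 8 call for PPx in KO-labelled islets, at 1.72, was lost at an FDR of 0.01 and, at 0.89, under centring. Centring turned uncalled Arid1b folds below 0: the distal peak to -0.26 by genotype after PPx, -0.51 by PPx in KO-labelled islets and -0.13 by PPx in controls, intron 4 to -0.03 by PPx in KO-labelled islets, and the differences of effects at the distal peak to -0.28 (genotype) and -0.38 (PPx). The SWI/SNF count for PPx in KO-labelled islets fell to 0 at an FDR of 0.01 and under centring. By genotype after PPx it was 0 without the lowest 25% of concentrations, which hold the Arid1a peak. The count of other ARID peaks by genotype after PPx was 0 at an FDR of 0.01, with adjustment over all listed peaks and with repeated rows kept, and 1 under centring. For PPx in KO-labelled islets it was 0 at an FDR of 0.01 and under centring, and 1 with repeated rows kept. The median of the Arid1a neighbours for PPx in KO-labelled islets was 0.08 within 200 kb, where 1 peak is left. Of the other 114 of 133 alternative values, folds kept direction and call, counts were equal, and medians moved by less than the median implied SE of their table. An FDR of 0.01, adjustment over all listed peaks and keeping repeated rows leave a fold as it is, so its direction could not change under these. Leaving out single libraries was not run, because the tables hold group means. No paired analysis was possible because libraries of different groups share no number. Depth per library is unknown and limits what these folds can show.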
